A study of Mus musculus with 8 samples.

Results

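The genes described here are 37 mouse genes of fatty acid synthesis, elongation and desaturation, of glycerolipid synthesis and of phospholipid acyl remodelling. They were taken by symbol, and all 37 were found among the 55450 gene identifiers of the count tables. A filter on low counts left 14641 genes to be tested, 33 of the 37 among them. The other 4 were barely counted: over all 8 libraries together Agpat4 had 10 counts, Mlxipl 5, Lpcat2 4 and Elovl4 0. A count of 0 in a library is compatible with up to 3 counts, as far as counting error goes.

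The cells were PyMT-1099, a line from a mouse mammary tumour driven by the polyoma middle T antigen, which all groups share. The 8 libraries form 4 groups of 2: AGPS KO cells with TGF-β, AGPS KO cells untreated, parental (WT) cells with TGF-β and parental cells untreated. TGF-β was given at 2 ng/ml for 10 days. The knockout removes alkylglycerone phosphate synthase, the peroxisomal enzyme that makes the ether bond of ether lipids. The library names of all 4 knockout libraries carry the same suffix, SCC10, and no label says whether they come from 1 clone. No label says whether replicate libraries stem from separate cultures. The p-values therefore reflect the spread between libraries alone, and that spread may be technical.

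Fatty acids are built from acetyl-CoA, which ATP citrate lyase (Acly) makes from citrate and acetyl-CoA synthetase 2 (Acss2) from acetate. Acetyl-CoA carboxylases turn it into malonyl-CoA, fatty acid synthase joins the units into palmitate, and elongases and desaturases lengthen the chain and add double bonds. Acyl-CoA synthetases activate fatty acids, and the GPAM, AGPAT, lipin and DGAT steps place them in order on glycerol to give phosphatidate, diacylglycerol and triglyceride, while LPCAT and MBOAT enzymes exchange the chains of finished phospholipids. Many of these genes are known targets of the SREBP transcription factors, and in the mammary gland the pathway is best known for making milk fat.

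Counts of the deleted gene followed the labels. Agps counts were 869 and 643 in TGF-β-treated and 681 and 632 in untreated knockout cells, against 4996 and 4467 in TGF-β-treated and 6777 and 5630 in untreated parental cells. Library totals ran from 17007268 to 21311831 counts. Levels below are CPM (counts scaled to the library total) after TMM scaling, and changes are log2 fold changes of an edgeR quasi-likelihood fit over all 8 libraries, with the standard error (SE). A gene is called changed at an adjusted p under 0.05. Among epithelial markers Epcam had 0 counts in every library. The other 4 (Cdh1, Krt8, Krt18 and Krt19) summed to 3234 to 3448 CPM in knockout cells with TGF-β and 4181 to 4506 CPM in untreated knockout cells. They summed to 3125 to 3327 CPM in parental cells with TGF-β and 5801 to 6396 CPM in untreated parental cells. The sum was thus lower with TGF-β in both lines, but in knockout cells this came from Cdh1 and Krt19, which fell, while Krt8 and Krt18 did not pass (log2 changes 0.16 and 0.12, edgeR adjusted p = 0.264 and 0.361). In parental cells 4 of 4 fell with TGF-β. Untreated, 4 of 4 were lower in knockout than in parental cells. Of 7 adipocyte markers 1 passed the filter, Plin1 and Cfd had 0 counts throughout, and the sum was 0.303 to 0.333 CPM in knockout cells with TGF-β, 0.966 to 1.95 CPM in untreated knockout cells, 0.238 to 0.318 CPM in parental cells with TGF-β and 1.41 to 1.53 CPM in untreated parental cells. Of 5 immune markers only Cd68 passed the filter, Adgre1 and Cd3e had 0 counts throughout, and the sum was 9.96 to 11.9 CPM in knockout cells with TGF-β, 1.86 to 2.95 CPM in untreated knockout cells, 6.47 to 7.33 CPM in parental cells with TGF-β and 1.00 to 1.99 CPM in untreated parental cells. Of 4 endothelial markers Cdh5 and Pecam1 passed, and the sum, nearly all Cdh5 in cells with TGF-β, was 6.71 to 8.24 CPM in knockout cells with TGF-β, 0.510 to 0.821 CPM in untreated knockout cells, 76.5 CPM in both parental libraries with TGF-β and 1.29 to 1.58 CPM in untreated parental cells. The part of these markers in the results below was not tested. In bulk RNA, fewer cells of a type and less RNA per cell cannot be told apart.

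The sequences before a RefSeq start of 5 members are shown, chosen by their results below. Mboat1 had the lowest adjusted p with TGF-β in both lines, Acacb rose with TGF-β, and Acsl1 was lower in untreated knockout cells. Mboat2 fell with TGF-β in both lines and was higher in knockout cells in both conditions. Gpam fell with TGF-β in both lines and differed between the untreated lines only, a call lost in 7 of 14 alternatives. RefSeq promoter windows (GRCm38.p6) were matched by symbol for 30 of the 37 members. The 250 bases before each start were searched on both strands for CCAAT, the box bound by NF-Y, for TCACNCCAC, the core of the sterol regulatory element bound by SREBPs, for the E-box CACGTG and for the Sp1 box GGGCGG. Each sequence reads 5′ to 3′ towards the start, and capitals mark matches of CCAAT and TCACNCCAC or their reverse complements. The windows are Mboat1 chr13:30136240-30136489 (+), Gpam chr19:55127239-55127488 (-), Mboat2 chr12:24831349-24831598 (+), Acacb chr5:114165268-114165517 (+) and the second Acsl1 start chr8:46490716-46490965 (+). By GENCODE M21 Mboat2, Acacb and Acsl1 begin at 24830879, 114146535 and 46471037, so the windows printed for these genes lie inside them. The first Acsl1 window, chr8:46470787-46471036, lies just before the gene and is not printed. It held 0 matches of CCAAT, 0 of TCACNCCAC and 4 of GGGCGG.
Mboat1: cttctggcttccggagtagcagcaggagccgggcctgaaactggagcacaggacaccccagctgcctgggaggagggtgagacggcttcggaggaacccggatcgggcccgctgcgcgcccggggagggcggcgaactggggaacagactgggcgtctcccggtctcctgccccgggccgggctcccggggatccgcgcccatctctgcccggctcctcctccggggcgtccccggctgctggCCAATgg
Gpam: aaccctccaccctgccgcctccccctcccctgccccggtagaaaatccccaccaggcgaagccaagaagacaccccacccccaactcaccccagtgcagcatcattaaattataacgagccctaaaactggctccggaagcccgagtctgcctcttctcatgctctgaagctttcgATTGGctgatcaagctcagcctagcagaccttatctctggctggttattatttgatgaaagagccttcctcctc
Mboat2: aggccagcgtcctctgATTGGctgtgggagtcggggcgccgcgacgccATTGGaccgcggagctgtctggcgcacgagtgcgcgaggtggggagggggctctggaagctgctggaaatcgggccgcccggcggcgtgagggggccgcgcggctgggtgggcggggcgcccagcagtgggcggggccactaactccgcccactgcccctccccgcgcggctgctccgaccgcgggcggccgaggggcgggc
Acacb: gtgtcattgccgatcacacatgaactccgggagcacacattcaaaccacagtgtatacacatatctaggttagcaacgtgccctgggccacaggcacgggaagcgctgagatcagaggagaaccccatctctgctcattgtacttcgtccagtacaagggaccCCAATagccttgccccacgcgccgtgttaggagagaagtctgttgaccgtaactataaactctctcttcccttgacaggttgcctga
Acsl1: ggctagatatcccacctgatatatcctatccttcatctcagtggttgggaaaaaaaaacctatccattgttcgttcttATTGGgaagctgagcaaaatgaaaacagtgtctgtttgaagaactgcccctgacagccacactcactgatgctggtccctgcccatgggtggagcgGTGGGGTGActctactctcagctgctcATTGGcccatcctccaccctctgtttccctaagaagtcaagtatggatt

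CCAAT lay in 19 of the members' 39 windows (18 of 30 members), and in 33.8% of all 32851 RefSeq windows of this length. GGGCGG lay in 25 of the 39 windows (21 members) and in 32.7% of all windows. CACGTG lay in 3 of the 39 windows (Mlxipl, Elovl5 and Lpin2) and in 6.02% of all. The sterol element core lay in 2 of the 39 windows, of Mlxipl and Acsl1, and in 1.05% of all. Only the second Acsl1 window among the members' windows also held CCAAT, a pairing present in 0.326% of all windows. Some members have several windows and so more chances of a match. A match is a string of letters and not a measured binding site.

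With TGF-β most of the pathway was lower in both lines, as the plot of TGF-β changes shows. In knockout cells 19 of 33 members fell and 4 rose, where 20.6% of all tested genes fell and 20.9% rose. In parental cells 21 of 33 fell and 4 rose, against 21.2% of all genes lower and 21.3% higher. The median member changed by -0.30 in knockout and by -0.76 in parental cells on the log2 scale, beside -0.00 and 0.01 for all genes. The members were chosen with earlier results of these data known, so the comparison with all genes is a description and no independent test. Both lines shared 17 members that fell and 3 that rose (Acacb, Agpat3 and Lpcat4). A further 4 fell in parental cells only by the threshold (Srebf1, Acsl1, Acsl3 and Dgat1) and 2 in knockout cells only (Fasn and Mboat7), while Fads3 rose only in parental and Agpat1 only in knockout cells by the same rule. Whether these changes differed between the lines is tested further on. In each line 11 members moved by 1 log2 unit or more, but the share of all genes that moved so far was not counted.

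**Figure D1:**
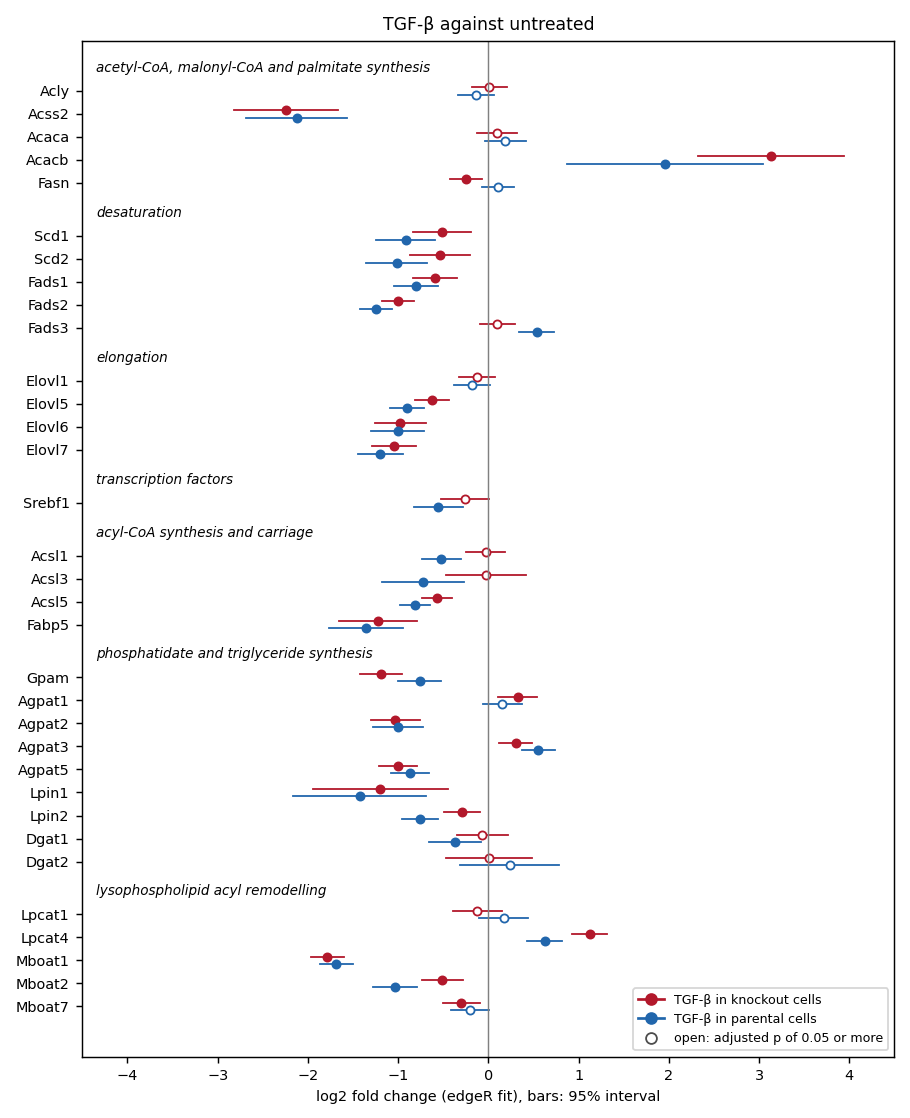
Log2 fold change with TGF-β (horizontal axis, points, with 95% intervals as bars) of the 33 tested members in knockout cells (red) and parental cells (blue), grouped by role. Filled points passed the threshold: Mboat1 and Acss2 lie far to the left in both lines, Acacb far to the right, and Acly, Acaca and Fasn near 0.

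The enzymes that make palmitate did not move together. Acss2 (chromosome 2, 155517948 to 155585724, GRCm38), which captures acetate for acetyl-CoA, had 6.77 and 10.6 CPM in knockout cells with TGF-β against 33.9 and 47.9 CPM in untreated knockout cells. In parental cells it had 11.3 and 13.5 CPM with TGF-β against 41.8 and 66.2 CPM without. Treated and untreated libraries did not overlap in either line, and Acss2 fell by 2.24 in knockout cells on the log2 scale (SE 0.26, edgeR adjusted p = 3.20e-05) and fell by 2.12 in parental cells (SE 0.25, edgeR adjusted p = 4.14e-05). Acly, the citrate route to the same product, had 333 and 361 CPM in knockout cells with TGF-β against 332 and 356 CPM without. In parental cells Acly had 327 and 337 CPM with TGF-β against 342 and 387 CPM without, and its change passed in neither line (edgeR adjusted p = 0.936 in knockout and 0.257 in parental cells). Of Acss2 exon length, 9.12% lies opposite exons of Acss2os, Ggt7 and Gss, and 6.13% of its 50-base stretches occur in those genes. Without known strandedness, reads of these overlaps cannot be told apart.

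Acacb rose, on low counts. It encodes the acetyl-CoA carboxylase bound to mitochondria, whose malonyl-CoA is known to restrain fatty acid import for oxidation. It had 6.47 and 8.20 CPM in knockout cells with TGF-β against 1.30 and 0.371 CPM without, which are 128 and 148 counts against 27 and 8. The parental levels were 1.85 and 1.85 CPM with TGF-β against 0.422 and 0.527 CPM without, or 35 and 31 counts against 8 and 9. Acacb thus rose by 3.13 in knockout cells (SE 0.37, edgeR adjusted p = 3.32e-05) and by 1.96 in parental cells (SE 0.49, edgeR adjusted p = 0.0077). Its cytosolic counterpart Acaca, the carboxylase of fatty acid synthesis, had 52.9 and 59.6 CPM in knockout cells with TGF-β against 49.2 and 56.1 CPM without. In parental cells Acaca had 50.2 and 50.3 CPM with TGF-β against 43.8 and 44.5 CPM without, and it passed in neither line (edgeR adjusted p = 0.501 in knockout and 0.178 in parental cells). Per kilobase of exon, the level of Acaca was 4.33 times that of Acacb in knockout cells with TGF-β, 35.4 times in untreated knockout cells, 15.3 times in parental cells with TGF-β and 52.5 times in untreated parental cells. Of the 50-base stretches of Acaca transcripts 30.4% also occur in another gene, mostly Gm5182, so its counts are uncertain to that extent.

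Fasn, fatty acid synthase, stayed near its untreated level. It had 508 and 522 CPM in knockout cells with TGF-β against 601 and 624 CPM without, and it fell there by 0.25 (SE 0.08, edgeR adjusted p = 0.0276). That call was lost without either knockout library with TGF-β, without untreated knockout replicate 2 and without either parental library with TGF-β (highest edgeR adjusted p 0.118). In parental cells Fasn had 565 and 537 CPM with TGF-β against 526 and 499 CPM without, a log2 change of 0.10 that did not pass (edgeR adjusted p = 0.334).

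The desaturases fell, apart from Fads3. Scd2 (chromosome 19, 44293674 to 44306864), a stearoyl-CoA desaturase that makes oleate and palmitoleate, was the most abundant member in all 4 groups. It had 12471 and 13587 CPM in knockout cells with TGF-β against 16817 and 20988 CPM without. In parental cells Scd2 had 8436 and 9224 CPM with TGF-β against 15252 and 20503 CPM without. Scd2 fell by 0.54 in knockout cells (SE 0.15, edgeR adjusted p = 0.0143) and by 1.02 in parental cells (SE 0.15, edgeR adjusted p = 2.42e-04). In knockout cells the call was lost without TGF-β replicate 1 or without untreated replicate 2 (highest edgeR adjusted p 0.0943), and the estimate ranged from -0.69 to -0.37 over 14 alternatives.

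Scd1, the isozyme that dominates in liver and fat, had 82.2 and 89.0 CPM in knockout cells with TGF-β against 109 and 136 CPM without. In parental cells Scd1 had 51.3 and 65.5 CPM with TGF-β against 98.2 and 122 CPM without. It fell by 0.51 in knockout cells (SE 0.15, edgeR adjusted p = 0.0145) and by 0.92 in parental cells (SE 0.15, edgeR adjusted p = 4.36e-04), close to the sizes for Scd2. The knockout call was lost without either library with TGF-β or without untreated replicate 2 (highest edgeR adjusted p 0.114). Per kilobase, Scd2 stood at 136 times the level of Scd1 in knockout cells with TGF-β, 138 times in untreated knockout cells, 135 times in parental cells with TGF-β and 145 times in untreated parental cells. The genes share some sequence: 4.56% of the 50-base stretches of Scd1 and 3.97% of those of Scd2 also occur in other genes. Of the Scd1 stretches 145 occur in Scd2, by far the more abundant, so the Scd1 counts may include Scd2 reads. Their part in the Scd1 changes was not tested.

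Fads2, the delta-6 desaturase that opens the synthesis of arachidonate and docosahexaenoate, had the lowest adjusted p of the desaturases in both lines. It had 419 and 443 CPM in knockout cells with TGF-β against 854 and 874 CPM without, and fell by 1.00 on the log2 scale (SE 0.08, edgeR adjusted p = 1.55e-06). In parental cells it had 474 and 476 CPM with TGF-β against 1100.3 and 1155 CPM without, a change of -1.25 (SE 0.08, edgeR adjusted p = 2.92e-07). Fads1, the delta-5 desaturase further along the same route, had 352 and 366 CPM in knockout cells with TGF-β against 509.6 and 571 CPM without. The parental levels were 322 and 339 CPM with TGF-β against 511 and 639.8 CPM without. Fads1 fell by 0.59 in knockout cells (SE 0.11, edgeR adjusted p = 0.00108) and by 0.80 in parental cells (SE 0.11, edgeR adjusted p = 1.26e-04). Fads3, a desaturase of sphingoid bases and the neighbour of Fads2 and Fads1 on chromosome 19, went the other way in parental cells, with 268 and 259 CPM with TGF-β against 172 and 192 CPM without (log2 change 0.54, SE 0.09, edgeR adjusted p = 4.99e-04). In knockout cells Fads3 had 229 and 240.4 CPM with TGF-β against 229 and 210.2 CPM without, and it did not pass (log2 change 0.10, edgeR adjusted p = 0.421).

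Of 4 tested elongases 3 fell in both lines. Elovl7, which elongates saturated chains, had 47.8 and 52.0 CPM in knockout cells with TGF-β against 94.4 and 111 CPM without, and 48.2 and 47.2 CPM in parental cells with TGF-β against 101 and 118 CPM without. It fell by 1.04 in knockout cells (SE 0.11, edgeR adjusted p = 1.52e-05) and by 1.20 in parental cells (SE 0.11, edgeR adjusted p = 5.72e-06). Elovl6, which takes palmitate to stearate, fell by 0.98 in knockout cells and by 1.01 in parental cells. Its levels were 18.8 and 18.7 CPM in knockout cells with TGF-β against 33.3 and 40.4 CPM without, and 18.0 and 16.7 CPM in parental cells with TGF-β against 32.0 and 37.9 CPM without. Elovl5, the elongase of polyunsaturated chains, had 128 and 126 CPM in knockout cells with TGF-β against 194 and 195 CPM without, and 115 and 124 CPM in parental cells with TGF-β against 212 and 234 CPM without, with log2 changes of -0.62 and -0.91 in that order of lines. Elovl1, an elongase of very long saturated chains, had between 51.2 and 62.7 CPM in all 8 libraries and passed in neither line (edgeR adjusted p = 0.322 in knockout and 0.144 in parental cells).

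Srebf1 encodes SREBP-1, a transcriptional activator of many of these genes. It had 53.7 and 67.1 CPM in knockout cells with TGF-β against 70.0 and 74.6 CPM without. In parental cells it had 53.8 and 46.4 CPM with TGF-β against 76.6 and 70.7 CPM without. It fell in parental cells (log2 change -0.55, SE 0.12, edgeR adjusted p = 0.00345) and did not pass in knockout cells (log2 change -0.26, SE 0.12, edgeR adjusted p = 0.113). These are transcript levels, and SREBP-1 acts only after cleavage of its precursor, which RNA does not show.

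Among the genes of acyl-CoA synthesis and carriage, 4 of 4 fell in parental cells and 2 of 4 in knockout cells. Fabp5, a cytosolic fatty acid carrier, had 17.4 and 16.0 CPM in knockout cells with TGF-β against 47.1 and 30.9 CPM without, and 29.4 and 33.2 CPM in parental cells with TGF-β against 91.2 and 68.8 CPM without. It fell by 1.22 in knockout cells (SE 0.20, edgeR adjusted p = 3.73e-04) and by 1.36 in parental cells (SE 0.19, edgeR adjusted p = 1.27e-04). Of its 50-base stretches 5.48% occur in other genes, mainly the Fabp5-like Gm6166. Acsl5, an acyl-CoA synthetase of mitochondria and endoplasmic reticulum, had 358 and 358 CPM in knockout cells with TGF-β against 527 and 534 CPM without, and 328 and 325 CPM in parental cells with TGF-β against 579.7 and 568 CPM without. Its changes were -0.57 and -0.81 in that order of lines, and the libraries of a group lay close together.

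The other pair of acyl-CoA synthetases fell in parental cells alone by the threshold. Acsl1 had 53.2 and 50.8 CPM in knockout cells with TGF-β against 51.9 and 54.4 CPM without, which overlap (log2 change -0.03, edgeR adjusted p = 0.838). The parental levels were 51.5 and 55.2 CPM with TGF-β against 71.7 and 81.3 CPM without (log2 change -0.52, SE 0.10, edgeR adjusted p = 0.00132). Acsl3, which serves lipid droplets and the endoplasmic reticulum, had 223 and 219 CPM in knockout cells with TGF-β against 177 and 272 CPM without, so that the treated libraries lay between the untreated ones (log2 change -0.03, edgeR adjusted p = 0.939). In parental cells Acsl3 had 105 and 121 CPM with TGF-β against 148 and 227 CPM without (log2 change -0.73, SE 0.21, edgeR adjusted p = 0.0141). That call was lost with DESeq2 and without TGF-β replicate 1 or untreated replicate 2 of parental cells (highest adjusted p 0.127, log2 change between -1.01 and -0.40). Of Acsl1 exon length, 9.91% lies opposite exons of Gm45244, and without known strandedness reads of the pair cannot be told apart.

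In phosphatidate and triglyceride synthesis 5 of 9 tested members fell and 2 rose in knockout cells, and 6 fell and 1 rose in parental cells. Gpam (chromosome 19, 55067268 to 55127238), the mitochondrial acyltransferase that commits glycerol phosphate to lipid, had 39.1 and 40.2 CPM in knockout cells with TGF-β against 87.2 and 93.9 CPM without. In parental cells it had 39.8 and 42.2 CPM with TGF-β against 63.5 and 75.6 CPM without. With TGF-β the lines differed by -0.05 on the log2 scale (95% interval -0.29 to 0.19), and Gpam fell by 1.19 in knockout cells (SE 0.11, edgeR adjusted p = 3.57e-06) and by 0.76 in parental cells (SE 0.11, edgeR adjusted p = 1.50e-04).

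The next step, acylation of lysophosphatidate, split by isozyme. Agpat2, the isozyme needed for fat storage in adipose tissue, had 13.1 and 12.2 CPM in knockout cells with TGF-β against 27.4 and 24.5 CPM without, and 14.9 and 12.9 CPM in parental cells with TGF-β against 28.0 and 27.8 CPM without. It fell by 1.03 in knockout and by 1.00 in parental cells. Agpat5, a mitochondrial isozyme, fell by 1.00 and 0.87 in the same order. Of its 50-base stretches 18.6% recur in other genes, nearly all in the overlapping antisense gene Gm35934. Agpat3, found on Golgi and endoplasmic reticulum, rose instead, with 132 and 139 CPM in knockout cells with TGF-β against 105 and 116 CPM without (log2 change 0.30, SE 0.08, edgeR adjusted p = 0.014) and 158 and 162 CPM in parental cells with TGF-β against 109 and 109 CPM without (log2 change 0.55, SE 0.09, edgeR adjusted p = 2.86e-04). Agpat1, the widely expressed isozyme, had 84.8 and 98.8 CPM in knockout cells with TGF-β against 75.6 and 70.8 CPM without (log2 change 0.33, edgeR adjusted p = 0.0195), and 89.0 and 95.2 CPM in parental cells with TGF-β against 84.2 and 81.5 CPM without (edgeR adjusted p = 0.245). In knockout cells both rises were lost without TGF-β replicate 2, that of Agpat1 also without untreated replicate 2 and that of Agpat3 also without untreated replicate 1 (highest edgeR adjusted p 0.171 and 0.113).

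Lipins remove the phosphate of phosphatidate to give diacylglycerol. Lpin1 had 8.75 and 11.03 CPM in knockout cells with TGF-β against 14.7 and 30.5 CPM without, and 12.7 and 13.3 CPM in parental cells with TGF-β against 24.2 and 46.1 CPM without. It was lower with TGF-β in every library, but its untreated libraries lay far apart in both lines. It fell by 1.20 in knockout cells (SE 0.34, edgeR adjusted p = 0.015) and by 1.43 in parental cells (SE 0.33, edgeR adjusted p = 0.00487). The knockout call was lost with DESeq2 and without either TGF-β library or untreated replicate 2 (highest adjusted p 0.165, log2 change between -1.63 and -0.58). Lpin2 had 110.4 and 106 CPM in knockout cells with TGF-β against 124 and 140.4 CPM without, and 86.8 and 84.5 CPM in parental cells with TGF-β against 149 and 141 CPM without. Its changes were -0.29 in knockout cells (SE 0.09, edgeR adjusted p = 0.022) and -0.76 in parental cells (SE 0.09, edgeR adjusted p = 3.92e-05), and the knockout call was lost without either TGF-β library or untreated replicate 2 (highest edgeR adjusted p 0.181).

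The last step of triglyceride synthesis moved little. Dgat1 had 20.1 and 20.0 CPM in knockout cells with TGF-β against 19.1 and 22.9 CPM without, which overlap, and 18.7 and 19.1 CPM in parental cells with TGF-β against 22.6 and 26.2 CPM without. It fell in parental cells by 0.37 (SE 0.13, edgeR adjusted p = 0.0400), a call lost with DESeq2, with upper quartile scaling and without knockout TGF-β replicate 1, either parental TGF-β library or untreated parental replicate 2 (highest adjusted p 0.224). Dgat2, the unrelated second enzyme of this step, had 3.59 and 4.66 CPM in knockout cells with TGF-β against 3.82 and 4.36 CPM without, and 2.60 and 2.86 CPM in parental cells with TGF-β against 2.06 and 2.58 CPM without. It passed in neither line (edgeR adjusted p = 0.983 in knockout and 0.483 in parental cells).

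The acyl remodelling enzymes held a large fall, in Mboat1, and the largest rise after that of Acacb, in Lpcat4. Mboat1 (chromosome 13, 30136489 to 30246717), which reacylates lysophosphatidylethanolamine and lysophosphatidylserine, had 88.1 and 92.1 CPM in knockout cells with TGF-β against 308 and 312 CPM without. The parental levels were 93.7 and 102 CPM with TGF-β against 313 and 315 CPM without. It fell by 1.78 in knockout cells (SE 0.08, edgeR adjusted p = 1.76e-08) and by 1.69 in parental cells (SE 0.08, edgeR adjusted p = 2.91e-08), the lowest adjusted p of any member in each line. Its relative Mboat2 had 38.8 and 39.96 CPM in knockout cells with TGF-β against 52.3 and 59.7 CPM without. In parental cells Mboat2 had 20.7 and 20.2 CPM with TGF-β against 39.9 and 44.0 CPM without. It fell by 0.51 in knockout cells (SE 0.10, edgeR adjusted p = 0.00211) and by 1.04 in parental cells (SE 0.11, edgeR adjusted p = 1.50e-05).

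Lpcat4 (chromosome 2, 112239468 to 112247111), an acyltransferase of lysophosphatidylethanolamine and lysophosphatidylcholine, had 177 and 192 CPM in knockout cells with TGF-β against 81.8 and 87.3 CPM without. In parental cells it had 169 and 164 CPM with TGF-β against 112 and 104 CPM without. It rose by 1.12 in knockout cells (SE 0.09, edgeR adjusted p = 1.14e-06) and by 0.62 in parental cells (SE 0.09, edgeR adjusted p = 1.44e-04). Mboat7, which puts arachidonate on lysophosphatidylinositol, had 45.0 and 45.0 CPM in knockout cells with TGF-β against 54.1 and 56.8 CPM without (log2 change -0.30, edgeR adjusted p = 0.0225), and 38.0 and 41.1 CPM in parental cells with TGF-β against 46.3 and 44.5 CPM without (log2 change -0.20, edgeR adjusted p = 0.117). The knockout call for Mboat7 was lost in 5 of 14 alternatives: DESeq2, no filter on low counts, and leaving out either TGF-β library or untreated replicate 2 (highest adjusted p 0.109). Lpcat1, which remodels phosphatidylcholine in lung surfactant, had between 55.2 and 90.2 CPM in all libraries and passed in neither line (edgeR adjusted p = 0.471 in knockout and 0.305 in parental cells).

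**Figure D2:**
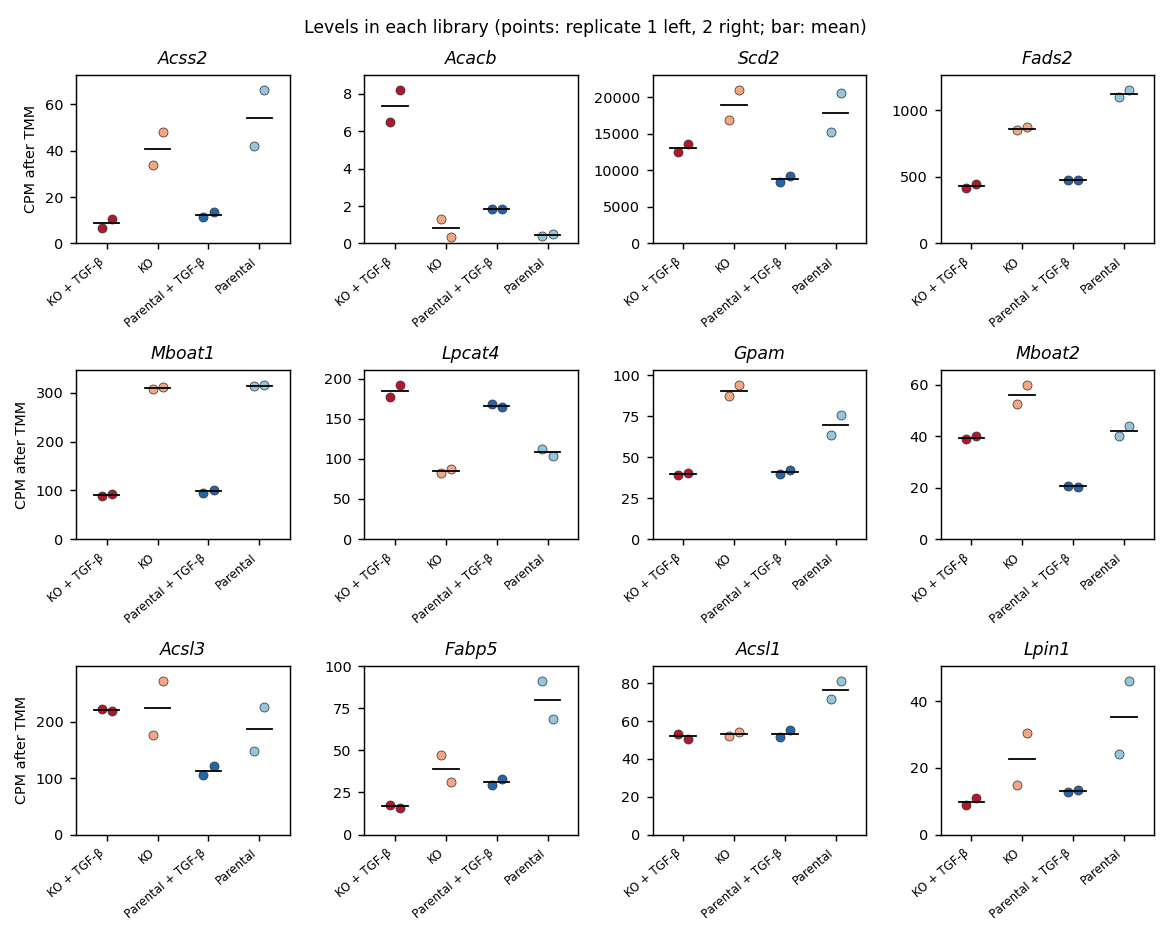
CPM after TMM (vertical axis, from 0) of 12 members in each library, with points for replicates 1 (left) and 2 (right) and a bar for their mean, in knockout cells with TGF-β, knockout cells, parental cells with TGF-β and parental cells. Mboat1 falls into treated libraries at 88.1 to 102 CPM and untreated ones at 308 to 315 CPM, while the untreated libraries of Acss2, Acsl3 and Lpin1 lie apart by replicate.

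Levels between members were compared per kilobase of exon, as group means of 2 libraries. Scd2 led every group, at 2385 CPM per kb in knockout cells with TGF-β, 3459.5 in untreated knockout cells, 1616 in parental cells with TGF-β and 3272 in untreated parental cells. Fads2 came next in all 4 groups, at 131, 262, 144 and 342 CPM per kb in that order of groups. Scd2 made up 69.1% to 79.2% of the members' summed CPM in a library. The summed CPM of all members was 16320.1 and 17595.1 in knockout cells with TGF-β against 21962.9 and 26484.6 without, and 12208.6 and 13038.1 in parental cells with TGF-β against 20691.6 and 26294.9 without. Without Scd2 the sum was 3848.7 and 4007.8 CPM in knockout cells with TGF-β against 5145.5 and 5496.6 CPM without, and 3772.5 and 3814.2 CPM in parental cells with TGF-β against 5440.1 and 5791.9 CPM without. The sum was lower in each treated library than in each untreated one, with and without Scd2. At the low end of the tested members stood Acacb in all 4 groups, at 0.762 CPM per kb in knockout cells with TGF-β, 0.0870 in untreated knockout cells, 0.192 in parental cells with TGF-β and 0.0493 in untreated parental cells. Among untreated parental cells Fads1, at 119.5 CPM per kb, and Acsl5, at 118, were neighbours that did not differ beyond the spread of their libraries.

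**Figure D3:**
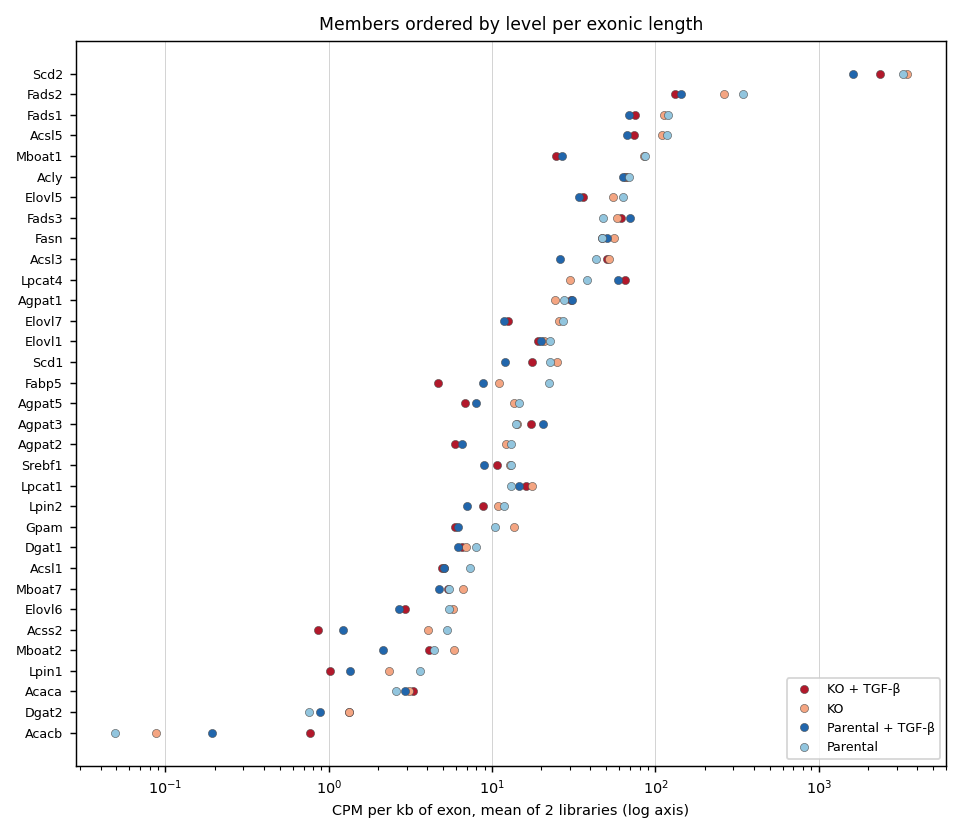
Mean CPM per kb of exon (horizontal log axis, n = 2 libraries per point) of the 33 tested members in the 4 groups, ordered by untreated parental cells. Scd2 lies far to the right of all others and Acacb far to the left, and the points of Mboat1 and Acss2 spread by treatment.

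Fewer members differed between the lines, as the plot of knockout changes shows. Without treatment 4 of 33 members were higher in knockout than in parental cells (Gpam, Dgat2, Lpcat1 and Mboat2) and 4 lower (Fabp5, Acsl1, Fads2 and Lpcat4), where 4.72% of all genes were higher and 8.94% lower. The share of members that were lower was thus near that of all genes. Upper quartile scaling gave 7 higher and 4 lower members, and of all genes 848 higher and 1190 lower, against 691 and 1309 in the main fit. The counts of members depended on single libraries, as did those of all genes. There were 0 higher and 5 lower without untreated knockout replicate 2, 2 higher and 3 lower without untreated knockout replicate 1, and 1 higher and 4 lower without untreated parental replicate 1 or either parental library with TGF-β. Without any of the other 3 libraries there were 2 higher and 4 lower. Among all genes, leaving out 1 library gave 420 to 628 higher and 952 to 1193 lower, fewer than in the main fit. With TGF-β 6 members were higher (Acacb, Scd1, Scd2, Acsl3, Lpin2 and Mboat2) and 1 lower (Fabp5), against 6.82% of all genes higher and 11.1% lower. Among the libraries with TGF-β, there were 2 higher and 0 lower without knockout replicate 1, 3 and 0 without knockout replicate 2, 2 and 1 without parental replicate 1, and 4 and 0 without parental replicate 2. All genes then gave, in the same order, 608 higher and 980 lower, 525 and 820, 365 and 823, and 429 and 888. In the main fit these were 998 and 1620. Without any 1 of the untreated libraries there were 6 higher and 1 lower. The median member changed by -0.08 without and by 0.09 with TGF-β on the log2 scale, beside 0.00 and 0.01 for all genes. Mboat2 was higher and Fabp5 lower in both comparisons, and 20 members passed in neither.

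**Figure D4:**
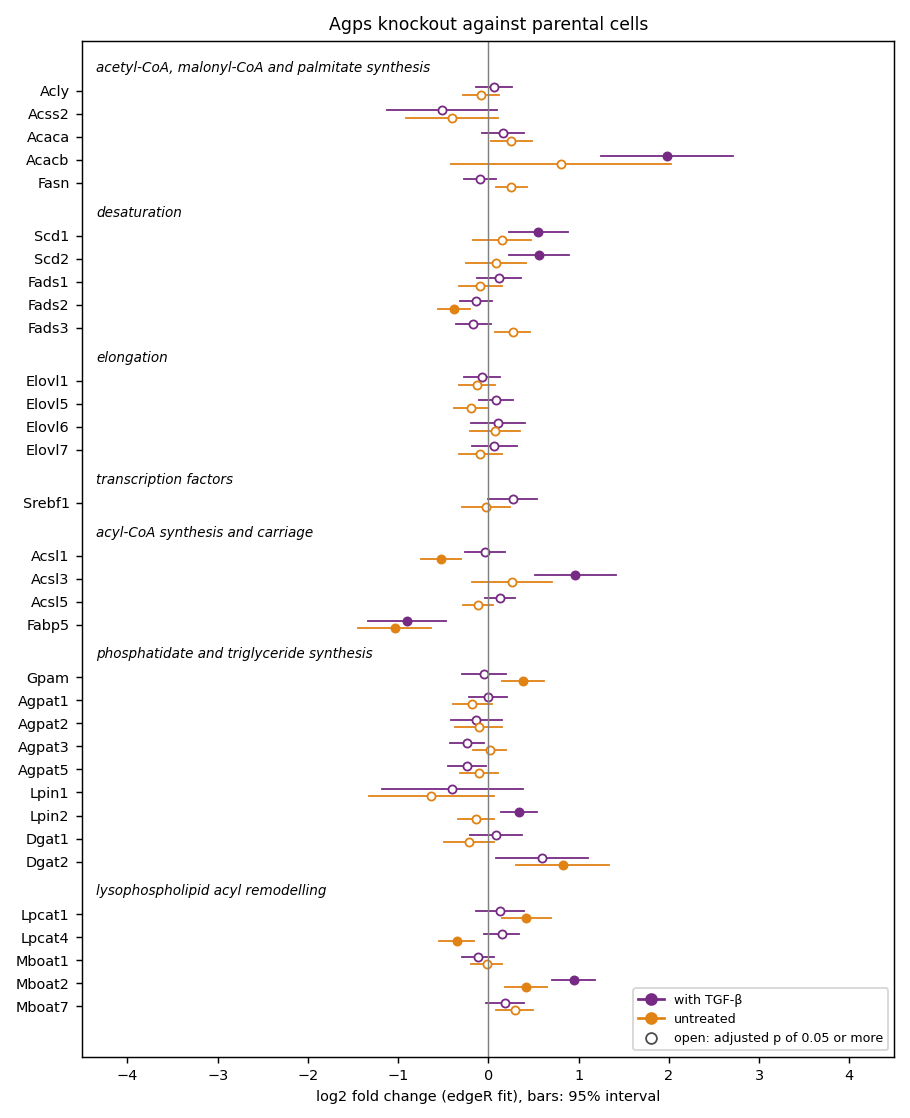
Log2 fold change of knockout against parental cells (horizontal axis, with 95% intervals as bars) of the 33 tested members, with TGF-β (purple) and untreated (orange), grouped by role. Filled points passed the threshold: Acacb with TGF-β, at 1.98, and untreated Fabp5, at -1.04, lie farthest from 0 among them.

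Fabp5 (chromosome 3, 10012548 to 10016607) was lower in knockout cells in both conditions. With TGF-β it had 17.4 and 16.0 CPM in knockout against 29.4 and 33.2 CPM in parental cells, and without it 47.1 and 30.9 CPM in knockout against 91.2 and 68.8 CPM in parental cells. The log2 change was -0.90 with TGF-β (SE 0.20, edgeR adjusted p = 0.00871) and -1.04 without (SE 0.18, edgeR adjusted p = 0.00317). The call with TGF-β was lost without either knockout library or parental replicate 2 of that condition (highest edgeR adjusted p 0.0953). Without treatment the 763 tested genes of chromosome 3 had a median log2 change of -0.27 and the 32 within 5 Mb of Fabp5 one of -0.24, values smaller than its own, and their part in the result was not tested.

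Acsl1 (chromosome 8, 46471037 to 46536051) had 51.9 and 54.4 CPM in untreated knockout against 71.7 and 81.3 CPM in untreated parental cells. Its log2 change was -0.52 (SE 0.10, edgeR adjusted p = 0.00438). The 809 tested genes of chromosome 8 had a median of -0.46 in the same comparison, and the 33 within 5 Mb of Acsl1 one of -0.04. With TGF-β Acsl1 had 53.2 and 50.8 CPM in knockout against 51.5 and 55.2 CPM in parental cells, which overlap, while the chromosome 8 median was -0.47 there too. Fads2 had 854 and 874 CPM in untreated knockout against 1100.3 and 1155 CPM in untreated parental cells (log2 change -0.38, SE 0.08, edgeR adjusted p = 0.00844). With TGF-β Fads2 had 419 and 443 CPM in knockout against 474 and 476 CPM in parental cells and did not pass (edgeR adjusted p = 0.284).

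Mboat2 (chromosome 12, 24830879 to 24964397) was higher in knockout cells in both conditions. With TGF-β it had 38.8 and 39.96 CPM in knockout against 20.7 and 20.2 CPM in parental cells, 1.93 times as much (log2 change 0.95, SE 0.11, edgeR adjusted p = 1.87e-04). Without treatment it had 52.3 and 59.7 CPM against 39.9 and 44.0 CPM (log2 change 0.42, SE 0.10, edgeR adjusted p = 0.0209), a call lost without untreated knockout replicate 2 or untreated parental replicate 1 (highest edgeR adjusted p 0.141). Lpcat4 had 81.8 and 87.3 CPM in untreated knockout against 112 and 104 CPM in untreated parental cells (log2 change -0.35, SE 0.09, edgeR adjusted p = 0.0205), lost without replicate 1 of either (highest edgeR adjusted p 0.122). With TGF-β Lpcat4 had 177 and 192 CPM in knockout against 169 and 164 CPM in parental cells and did not pass (edgeR adjusted p = 0.288).

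The other 3 untreated differences were small or rested on few counts. Gpam had 87.2 and 93.9 CPM in knockout against 63.5 and 75.6 CPM in parental cells (log2 change 0.38, SE 0.10, edgeR adjusted p = 0.0321), a call lost when any library but untreated parental replicate 2 was left out (highest edgeR adjusted p 0.226). Dgat2 had 3.82 and 4.36 CPM in knockout against 2.06 and 2.58 CPM in parental cells (log2 change 0.82, SE 0.23, edgeR adjusted p = 0.0380), lost with DESeq2 and without any untreated library or any parental library with TGF-β (highest adjusted p 0.202). Lpcat1 had 71.4 and 90.2 CPM in knockout against 65.6 and 55.2 CPM in parental cells (log2 change 0.42, SE 0.12, edgeR adjusted p = 0.0437), lost without replicate 2 of either untreated group or any library with TGF-β (highest edgeR adjusted p 0.288).

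With TGF-β the knockout cells held more of 5 members besides Mboat2. Acacb had 6.47 and 8.20 CPM in knockout against 1.85 and 1.85 CPM in parental cells, 3.95 times as much (log2 change 1.98, SE 0.33, edgeR adjusted p = 0.00200). Acsl3 (chromosome 1, 78657825 to 78707743) had 223 and 219 CPM in knockout against 105 and 121 CPM in parental cells, 1.95 times as much (log2 change 0.96, SE 0.21, edgeR adjusted p = 0.0076). The Acsl3 call was lost without TGF-β replicate 1 of either line (highest edgeR adjusted p 0.0781).

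Scd2 had 12471 and 13587 CPM in knockout with TGF-β against 8436 and 9224 CPM in parental cells with TGF-β (log2 change 0.56, SE 0.15, edgeR adjusted p = 0.0253). Scd1 had 82.2 and 89.0 CPM in knockout against 51.3 and 65.5 CPM in parental cells with TGF-β (log2 change 0.55, SE 0.15, edgeR adjusted p = 0.0250). Both isozymes thus differed by about the same factor, without overlap between the lines. Given the stretches they share, the Scd1 result is not shown to be independent of that of Scd2. Lpin2 had 110.4 and 106 CPM in knockout against 86.8 and 84.5 CPM in parental cells with TGF-β (log2 change 0.33, SE 0.09, edgeR adjusted p = 0.0253). Each of these 3 calls was lost without either knockout library or without parental replicate 1 of that condition, and those of Scd2 and Lpin2 also without parental replicate 2 (highest edgeR adjusted p 0.161 for Scd2, 0.235 for Scd1 and 0.172 for Lpin2).

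The response to TGF-β in knockout cells minus that in parental cells passed for 0 of 33 members in the edgeR test, where 1.25% of all genes passed with a positive and 1.15% with a negative difference. At an unadjusted p under 0.05 there were 11 members, of which 8 were positive and 3 negative. All genes at that threshold were not counted, so no share stands beside the 11. DESeq2 passed 1 member, Lpcat4, beside 280 positive and 213 negative of 12947 genes. With no filter on low counts 4 passed (Scd2, Acsl3, Lpin2 and Lpcat4), beside 469 positive and 386 negative of 30946 genes. With the replicate number as a block 3 passed (Acsl3, Lpcat4 and Mboat2), beside 349 positive and 330 negative of 14641 genes. Each of these members had a positive difference. Lpcat4, whose rise was the larger in knockout cells, had a difference of 0.50 (SE 0.12, edgeR adjusted p = 0.0632, DESeq2 adjusted p = 0.0211). Lpin2 and Mboat2, which fell less in knockout cells, had differences of 0.47 and 0.53 (edgeR adjusted p = 0.092 and 0.113), and Acsl1 one of 0.49 (edgeR adjusted p = 0.113). Gpam, which fell more in knockout cells, had a difference of -0.43 with a 95% interval of -0.76 to -0.10 (edgeR adjusted p = 0.205), and Acacb one of 1.17 with an interval of -0.32 to 2.67 (edgeR adjusted p = 0.499). Among the members with like changes in both lines, Mboat1 had a difference of -0.10 with an interval of -0.35 to 0.16, Agpat2 one of -0.03 (-0.42 to 0.36) and Elovl6 one of 0.03 (-0.38 to 0.44). Acsl3 had a difference of 0.70 with an interval of 0.07 to 1.34 (edgeR adjusted p = 0.299). It passed in 3 alternatives: 0.72 with no filter and with the block (edgeR adjusted p = 5.22e-05 and 0.0471), and 1.05 without untreated knockout replicate 2 (edgeR adjusted p = 0.0383). Calls in 1 line alone, such as those of Acsl1, Fads3 and Srebf1, are not shown to differ between the lines by this test.

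The wider pathway is given by further lists of genes, with counts in knockout cells first. Their counts are to be read against all tested genes, of which 20.6% fell and 20.9% rose with TGF-β in knockout cells and 21.2% fell and 21.3% rose in parental cells, with medians of -0.00 and 0.01 on the log2 scale. Some genes in these counts passed the low-count filter through 1 condition only, which fixed the direction of their change beforehand. Of 8 tested genes that supply precursors and NADPH, 6 fell and 1 rose with TGF-β in knockout cells, and 6 fell and 0 rose in parental cells, with list medians of -0.91 and -0.96. Idh1, the cytosolic isocitrate dehydrogenase, had 68.6 and 86.0 CPM in knockout cells with TGF-β against 296 and 386 CPM without, and 41.1 and 51.6 CPM in parental cells with TGF-β against 348 and 475 CPM without. It fell by 2.14 in knockout and by 3.15 in parental cells (edgeR adjusted p = 2.18e-06 and 1.52e-07). Malic enzyme Me1 had 151 and 163 CPM in knockout cells with TGF-β against 314 and 371 CPM without, and 198 and 195 CPM in parental cells with TGF-β against 692 and 669 CPM without. Its fall of 1.13 in knockout cells was smaller than that of 1.79 in parental cells, and this difference of 0.66 passed (SE 0.13, edgeR adjusted p = 0.0264). Gpd1l, a glycerol phosphate dehydrogenase-like enzyme, fell by 1.27 in knockout cells and also fell in parental cells (edgeR adjusted p = 3.41e-06 and 5.67e-07). G6pdx, the entry to the pentose phosphate route, fell by 0.69 in knockout and by 1.02 in parental cells. Mlycd, which breaks down malonyl-CoA, fell by 1.45 in knockout cells and had a log2 change of -0.52 in parental cells that did not pass (edgeR adjusted p = 0.117). Untreated Me1 was lower in knockout than in parental cells by 0.99 (edgeR adjusted p = 5.96e-05).

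Of 15 tested genes that control SREBP and LXR activity, 5 fell and 3 rose in knockout cells and 6 fell and 0 rose in parental cells (medians -0.07 and -0.26). The share that rose in knockout cells was near the 20.9% of all genes. Insig1, which retains the SREBP escort SCAP in the endoplasmic reticulum and is itself an SREBP target, had 53.3 and 63.4 CPM in knockout cells with TGF-β against 126 and 185 CPM without, and 57.9 and 55.3 CPM in parental cells with TGF-β against 161 and 229 CPM without. It fell by 1.42 and 1.78 in that order of lines, and Srebf2, the SREBP of sterol synthesis, by 0.71 and 1.08. Prkaa2, a catalytic subunit of AMP-activated kinase, which inhibits acetyl-CoA carboxylase, fell by 1.39 and 1.04. The other catalytic subunit gene, Prkaa1, did not fall. It had 4015 and 3220 raw counts in knockout cells with TGF-β against 3065 and 3012 without. In parental cells Prkaa1 had 3660 and 3373 raw counts with TGF-β against 3271 and 2805 without. Mid1ip1, which encodes an activator of acetyl-CoA carboxylase, had 44.2 and 49.2 CPM in knockout cells with TGF-β against 97.3 and 93.0 CPM without, and 128 and 131 CPM in parental cells with TGF-β against 282 and 339 CPM without. It fell with TGF-β by 1.03 and 1.26, and it was lower in knockout than in parental cells by 1.47 with TGF-β and by 1.71 without (edgeR adjusted p = 6.21e-06 and 2.63e-06).

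Of 26 further genes of glycerolipid and phospholipid synthesis, 10 fell and 6 rose in knockout cells and 11 fell and 8 rose in parental cells (medians -0.25 and -0.20). Lpin3, the third lipin, had 24.1 and 18.3 CPM in knockout cells with TGF-β against 3.24 and 2.13 CPM without, and 39.9 and 37.5 CPM in parental cells with TGF-β against 4.95 and 5.86 CPM without. Lpin3 thus rose by 2.99 in knockout and by 2.84 in parental cells while Lpin1 and Lpin2 fell. Pcyt1b, an isozyme of the rate-limiting step of phosphatidylcholine synthesis, had 778 counts in both knockout libraries with TGF-β together against 15 without, and 819 in both parental libraries with TGF-β against 11 without (log2 changes 5.84 and 6.21). Pcyt1b passed the filter only through libraries with TGF-β, so the direction of its change was fixed beforehand. Choline kinase Chka fell by 1.83 in knockout and by 1.04 in parental cells, a difference of -0.80 that passed (SE 0.15, edgeR adjusted p = 0.0225). Cholinephosphotransferase Chpt1 fell by 1.98 and 1.75. Gpat4, which does the Gpam step in the endoplasmic reticulum, had 95.5 and 93.3 CPM in knockout cells with TGF-β against 213 and 184 CPM without, and 104 and 94.1 CPM in parental cells with TGF-β against 250.02 and 231 CPM without. It fell by 1.07 and 1.28. Gpat3, another enzyme of that step, had 25.2 and 21.3 CPM in knockout cells with TGF-β against 18.9 and 18.1 CPM without, a log2 change of 0.33 that did not pass (edgeR adjusted p = 0.0854). In parental cells Gpat3 had 22.1 and 24.9 CPM with TGF-β against 14.7 and 18.5 CPM without, and it rose by 0.50 (edgeR adjusted p = 0.0147). Gpat3 was named after its values were seen.

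Of 18 further genes of elongation and activation, 4 fell and 3 rose in knockout cells and 7 fell and 2 rose in parental cells (medians -0.13 and -0.21). In knockout cells these shares were near those of all genes, 20.6% lower and 20.9% higher. Acsl4, which prefers arachidonate, fell by 1.88 in knockout and 1.83 in parental cells, and the fatty acid transporter gene Slc27a1 rose by 2.91 and 2.74. The acyl-CoA synthetase gene Acsf2 fell by 0.74 and 1.40 and the fatty acid transporter gene Slc27a6 by 0.92 and 0.78, while Hacd1, a dehydratase of chain elongation, rose by 0.46 and 1.09. Of 12 genes of lipid droplets and lipolysis, 3 fell and 4 rose in knockout cells and 4 fell and 3 rose in parental cells (medians -0.05 and -0.07). The shares that fell in knockout and rose in parental cells were near those of all genes, 20.6% and 21.3%. The droplet coat gene Plin2 had 541 and 521 CPM in knockout cells with TGF-β against 154 and 157 CPM without, and 521 and 475 CPM in parental cells with TGF-β against 118 and 141 CPM without, and rose by 1.77 and 1.95. The monoglyceride lipase gene Mgll had 9.20 and 7.82 CPM in knockout cells with TGF-β against 0.0483 and 0 CPM without, and 16.6 and 16.1 CPM in parental cells with TGF-β against 0.105 and 0.176 CPM without. Mgll too passed the filter only through libraries with TGF-β. The coat gene Plin3 fell by 1.25 and 1.06, and the triglyceride lipase gene Pnpla2 by 0.68 and 0.47.

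Of 5 tested genes of fatty acid binding and uptake, 2 fell in knockout and 3 in parental cells and 0 rose in either. The fatty acid receptor gene Cd36 had 0.101 and 0.166 CPM in knockout cells with TGF-β against 16.6 and 17.4 CPM without, and 0.212 and 0.0596 CPM in parental cells with TGF-β against 3.53 and 4.39 CPM without. Untreated Cd36 was higher in knockout than in parental cells by 2.10 on the log2 scale (edgeR adjusted p = 4.92e-05). Of 20 genes of fatty acid oxidation, 8 fell and 3 rose in knockout cells and 9 fell and 1 rose in parental cells, with medians of -0.19 and -0.37. Cpt1a, the entry step of mitochondrial oxidation that malonyl-CoA inhibits, fell by 0.80 and 0.69 in that order of lines, and Acadm, the medium-chain dehydrogenase, by 0.59 and 0.91. Cpt2 fell by 0.66 and 0.76 and Hadh by 0.76 and 0.90. Ppargc1a, a coactivator of oxidation genes, had 0.404 and 0.443 CPM in knockout cells with TGF-β against 11.6 and 22.3 CPM without, and 0.265 and 0.357 CPM in parental cells with TGF-β against 2.21 and 5.97 CPM without. Cd36 and Ppargc1a passed the filter only through untreated libraries, so the direction of their change with TGF-β was fixed beforehand.

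Of all genes 6.82% were higher and 11.1% lower in knockout than in parental cells with TGF-β, and 4.72% higher and 8.94% lower without. With so few genes a list, these counts are given as a description. With TGF-β, knockout against parental cells gave 1 higher and 2 lower of the 15 control genes, 2 and 2 of the 8 precursor genes, 3 and 1 of the 18 elongation and activation genes and 4 and 3 of the 26 glycerolipid genes. Lipid droplet genes gave 0 higher and 2 lower of 12, binding and uptake genes 1 and 0 of 5, and oxidation genes 3 and 1 of 20. Without treatment the same lists, in the same order, gave 1 higher and 3 lower, 0 and 2, 2 and 2, 0 and 1, 1 and 1, 1 and 0, and 3 and 2. Mbtps1, the site-1 protease that starts the cleavage of SREBP precursors and lies on chromosome 8, had 101 and 102 CPM in knockout against 169 and 164 CPM in parental cells with TGF-β, and 78.3 and 72.2 CPM in knockout against 151 and 154 CPM in parental cells without. It was lower by 0.71 with TGF-β and by 1.02 without (edgeR adjusted p = 1.77e-04 and 1.87e-05), beside chromosome 8 medians of -0.47 and -0.46, whose part was not tested. Hacd1 was higher in knockout cells by 0.69 with TGF-β and by 1.31 without, and Lpin3 was lower by 0.86 and 1.01 in the same order.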

How the data were processed

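Polyadenylated RNA was measured in 8 libraries of 4 groups of 2. STAR 2.7.1a, featureCounts 1.6.2, DESeq2 1.26.0 and the GRCm38 build are named in the submitters' processing notes. The deposited count files hold raw counts of the authors for 55450 gene identifiers. The annotation release is not given in the sources used here. Nor is strandedness, so reads of overlapping antisense genes cannot be told apart. The deposited table of normalized values was not used.

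edgeR 4.0.16 (R 4.3.3) kept 14641 genes (filterByExpr, minimum count 10), which held 99.9% of the counts, scaled library totals of 17007268 to 21311831 by TMM and fitted 1 mean per group over all 8 libraries, with 4 residual degrees of freedom. The quasi-likelihood F test gave 5 contrasts, adjusted by Benjamini-Hochberg over all genes tested, and a member was called at an adjusted p under 0.05. Standard errors are the log2 change divided by the root of F. Intervals are at 95%.

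The members and the further gene lists were chosen with earlier results of these data known. All 37 members are accounted for, and of each further list up to 4 called genes with the largest change could be named among those with an average log2 CPM of at least 1. There were 15 alternatives: RLE and upper quartile scaling, DESeq2 1.42.0, no filter on low counts, a filter on CPM, the replicate number as a block, TMM without 4 chromosomes (counts between lines only) and leaving out each of the 8 libraries. Positions, exon overlaps and shared 50-base stretches come from GENCODE M21, and promoter windows from RefSeq.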

Additional observations from a re-analysis of the deposited data

How the results depend on the processing

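Of the 63 calls of members between pairs of groups, 0 changed direction under the 14 alternatives run on single genes, and 43 passed in each: 15 of 23 with TGF-β in knockout cells, 23 of 25 with TGF-β in parental cells, 2 of 7 between the lines with TGF-β (Acacb and Mboat2) and 3 of 8 between the untreated lines (Acsl1, Fabp5 and Fads2). Leaving out 1 library each gave 16 to 23 calls with TGF-β in knockout cells and 23 to 25 in parental cells, 2 to 7 between the lines with TGF-β and 5 to 6 between the untreated lines, where fewer samples enter the fit. For the difference of the TGF-β changes the count was 0 to 1 without 1 library, 1 with DESeq2 (Lpcat4) and 4 with no filter on low counts (Scd2, Acsl3, Lpin2 and Lpcat4). The single call made without a library was Acsl3, at 1.05, without untreated knockout replicate 2. Counts of calls among all genes also varied with the setting and with the library left out. The cause of these changes was not tested.

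The replicate numbers are not said to pair libraries, and the deviations of same-numbered libraries correlated at 0.0218 to 0.308 between groups, not always over 0.1. The highest value, 0.308, was that between untreated parental and untreated knockout cells. With the replicate number as a block, 13 members passed between the untreated lines (7 higher and 6 lower) and 9 between the lines with TGF-β. With TGF-β 23 passed in knockout cells and 25 in parental cells, and 3 for the difference of the TGF-β changes (Lpcat4, Acsl3 and Mboat2). Calls among all genes rose too, between the untreated lines from 691 higher and 1309 lower in the main fit to 1015 and 1644. Between the lines with TGF-β they rose from 998 and 1620 to 1346 and 1959. RLE scaling and the CPM filter changed 0 of the main counts of called members, and TMM without chromosomes 3, 8, 15 and X gave 7 called members between the untreated lines. With 2 libraries a group, the smallest change of a member that passed was the fall of Fasn by 0.25 in knockout cells, and members of few counts such as Acacb and Dgat2 have wide intervals.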

Other observations

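Among untreated cells more members differed between replicates by over 0.5 on the log2 scale than among cells with TGF-β. The share of all genes that did so was not counted. Over all tested genes replicates correlated at 0.991 in untreated parental and 0.993 in untreated knockout cells. With TGF-β the values were 0.994 in parental and 0.993 in knockout cells. Acss2, Acsl3 and Lpin1 were higher in replicate 2 than in replicate 1 by more than 0.5 on the log2 scale in both untreated groups, Lpin1 by 1.05 in knockout and by 0.93 in parental cells. With TGF-β 1 member, Acss2 in knockout cells (0.64), and 0 members in parental cells differed by more than 0.5. Untreated Acacb in knockout cells was lower in replicate 2 than in replicate 1 by 1.81 on the log2 scale, at 8 and 27 counts.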
